A study of Mus musculus with 18 samples.

Results

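Ribosome biogenesis was followed through 38 genes, chosen by name from the 54279 rows of each deposited table: 9 genes of RNA polymerase I and its cofactors, 4 abundant nucleolar proteins, 4 proteins of the box C/D and U3 snoRNPs, 4 of the box H/ACA snoRNPs, 7 factors of small subunit assembly and 10 of large subunit assembly. All 38 had a row in both tables, and 36 had a mean of at least 1 CPM (counts scaled to a common library total) in each table and were tested. The other 2, Nop14 and Nop2, stayed under 1 CPM in every library. RNA came from mouse oligodendrocyte progenitor cells (OPCs), the dividing cells that give rise to the myelin-forming cells of the brain, here derived from epiblast stem cells and grown with Fgf2 and Pdgfa. The cells had been through CRISPR with either a control or an edit of Vhl, a gene whose protein marks the hypoxia-inducible factors for degradation. An untreated experiment compared CRISPR-Control with CRISPR-Vhl cells. In a separate drug experiment, the same kinds of cells were kept for 14 hours in medium with DMSO or with 300 nM AZD8330, an inhibitor of the MEK kinases, which pass the signal of growth factor receptors on to ERK. Each of the 6 groups had 3 libraries, lettered A, B and C. The labels do not say whether an edited line was a clone or a pool, nor whether the libraries of a group were separate cultures, and p-values here reflect the spread among these libraries alone, which may be technical.

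Ribosomes are made in the nucleolus. RNA polymerase I copies the ribosomal RNA genes into a long precursor, small nucleolar ribonucleoproteins (snoRNPs) modify it and guide its cutting, and large sets of assembly factors fold it with ribosomal proteins into the small and the large subunit. The process takes up much of the energy of a dividing cell and is known to follow growth factor signals through ERK and MYC, which act on the polymerase's cofactors and on the genes of the assembly factors.

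Libraries held 14594148 to 21160250 estimated counts in the untreated experiment and 12391077 to 16349676 in the drug experiment. The spread between libraries was larger in the untreated experiment, where the common dispersion was 0.144 against 0.0161. Vhl itself read 109, 107 and 102 CPM in control cells under DMSO and 90.04, 93.2 and 94.1 CPM in Vhl cells, a log2 change of -0.20 ± 0.05 (SE, adjusted p = 0.00777), and with AZD8330 139.8, 137 and 138 CPM and 104, 105 and 92.02 CPM, a change of -0.46 ± 0.05 (adjusted p = 1.01e-05). Untreated cells read 117, 121 and 125 CPM in control and 87.3, 90.2 and 74.1 CPM in Vhl libraries, which did not overlap (-0.53 ± 0.16, adjusted p = 0.357). An edit need not remove the transcript, so its level checks the labels only in part. Of known targets of the hypoxia-inducible factors, chosen after their values were seen, Vegfa read 6.60, 8.29 and 6.13 CPM in the untreated control libraries and 38.8, 408 and 644 CPM in Vhl libraries, in letter order, and Bnip3 17.1, 17.5 and 19.2 and 160.1, 514 and 517 CPM. All 5 targets read (also Slc2a1, Egln3 and Pdk1) were higher in Vhl library A than in every control library and lower than in Vhl libraries B and C. In the drug experiment Vegfa read 112, 100.3 and 95.6 CPM in Vhl cells under DMSO, where no library stood apart in this way, and 7.64, 7.78 and 5.94 CPM in control cells. Dusp6 and Spry4, feedback genes that ERK signalling switches on, fell by 4.31 and 3.31 on the log2 scale with AZD8330 in control cells. All 10 OPC markers were at 1 CPM or more in every group. Markers of other cell types were not level across the drug experiment: the summed CPM of 8 astrocyte markers was 1348 to 1378 in control DMSO libraries and 2579.9 to 2684 in control AZD8330 libraries, and that of 8 neuron markers was 1008 to 1059 and 2117 to 2128. In Vhl cells the astrocyte sum was 1629 to 1675 under DMSO and 2421 to 2503 with the drug, and the neuron sum 1476 to 1612 and 2509 to 2539. Of the neuron markers Syt1 was at 0 after rounding in every DMSO library, and of the pluripotent cell markers Pou5f1, Dnmt3l and Zfp42 were at 0 in every library of both experiments. The 6 microglia markers together never passed 2.03 CPM, and the 6 pluripotent cell markers never passed 3.67 CPM. Since the samples are bulk RNA, fewer cells of a type and less RNA per cell cannot be told apart, and the part of these markers in the results was not tested.

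Levels of the members spanned a wide range. Per kilobase of exon in control cells under DMSO, Npm1, the nucleolar chaperone nucleophosmin, was at 399 ± 28.2 CPM (SD, n = 3). It was followed by Nhp2 at 174 ± 1.03 CPM per kilobase and by nucleolin, Ncl, at 166 ± 9.11. The latter pair differed by less than the SD of the Ncl libraries. Nop10 at 81.3 ± 3.26 and Mybbp1a at 79.5 ± 0.908 came next and also did not differ beyond their spread. The order rests on the length used: per kilobase of the longest transcript, Polr1d (132) and Fbl (107) came before Mybbp1a (104) and Nop10. At the other end, Polr1b, the second-largest subunit of the polymerase, was at 0.211 ± 0.0356, Nop14 at 0.0741 ± 0.00437 and Nop2 at 0.0467 ± 0.0459 CPM per kilobase. Counts were few, at most 28 in a library of the drug experiment for Polr1b and for Bop1, 6 for Nop14 and 7 for Nop2. With so few, no difference between groups was detectable for Polr1b or Bop1, and Nop14 and Nop2 were not tested. Why these genes had so few counts was not tested either. Some members share sequence with other genes: of all exon words of 31 bases, the share also found in other genes was 32.4% for Pes1, 29.24% for Npm1, 22.36% for Nop56, 20.75% for Fbl, 11.66% for Wdr12 and 11.61% for Polr1d, and values of these genes are uncertain to that extent. Exons of Noc2l overlap exons on the opposite strand over 20.9% of their length, mainly of Samd11, and the sources used here do not give the strandedness. Those of Bysl do so over 9.4%, mainly with Ccnd3, and those of Nop56 overlap other exons on the same strand over 8.0%.

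**Figure D1:**
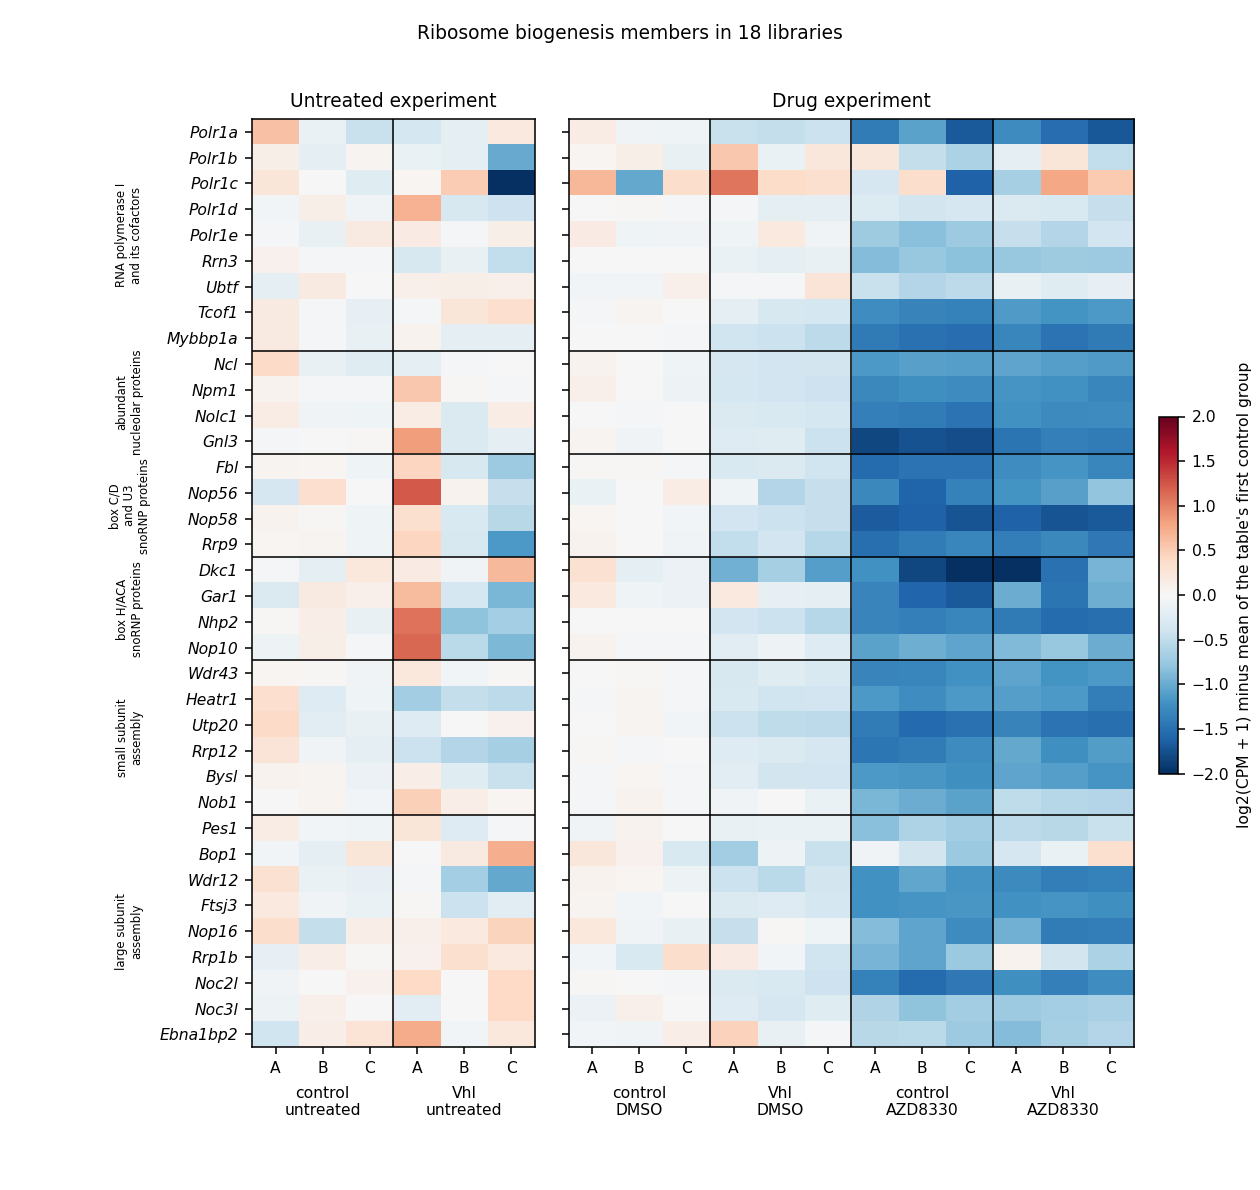
Level of each tested member (rows, grouped by role) in each of the 18 libraries (columns, by group), as log2(CPM + 1) minus the mean of the untreated control group or, in the drug experiment, of the control DMSO group (colour, red higher and blue lower, limited to -2 and 2). In the drug experiment nearly all rows are blue in the 6 AZD8330 libraries and most are pale blue in the Vhl DMSO libraries. The untreated Vhl libraries are mixed, and Vhl library A is the highest of the 6 for 15 of the 36 members, a count not made over all genes.

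With AZD8330 for 14 hours, ribosome biogenesis genes fell nearly as a block. In control cells, 33 of the 36 tested members were lower and none was higher, against 31.7% of all 13460 tested genes called lower and 29.1% called higher. In Vhl cells 31 members were lower and none was higher, against 25.6% of all genes lower and 25.8% higher. The median log2 change of the members was -1.20 in control cells, where the median over all genes was -0.01, and -0.85 in Vhl cells, where that over all genes was 0.03. The sum of all 38 members was 6588 ± 190 CPM in control cells under DMSO and 2923 ± 19.0 CPM with AZD8330 (SD, n = 3), and in Vhl cells it was 5267 ± 113 and 3104 ± 84.3 CPM. Calls are from the quasi-likelihood test of edgeR with a Benjamini-Hochberg adjusted p under 0.05 over all tested genes. All 31 members that fell in Vhl cells also fell in control cells. The members not called in control cells were Polr1b, Polr1c and Bop1, and in Vhl cells also Dkc1 and Rrp1b. The summed astrocyte and neuron markers given above were higher with the drug in both lines, and so was the sum of the 10 OPC markers. The OPC sum was 8140.4 to 8314 CPM under DMSO and 9029 to 9125 CPM with the drug in control cells. In Vhl cells it was 9043 to 9239 and 9779.5 to 9919 CPM. Single markers were not compared here, and the part of these sums in the members' fall was not tested.

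**Figure D2:**
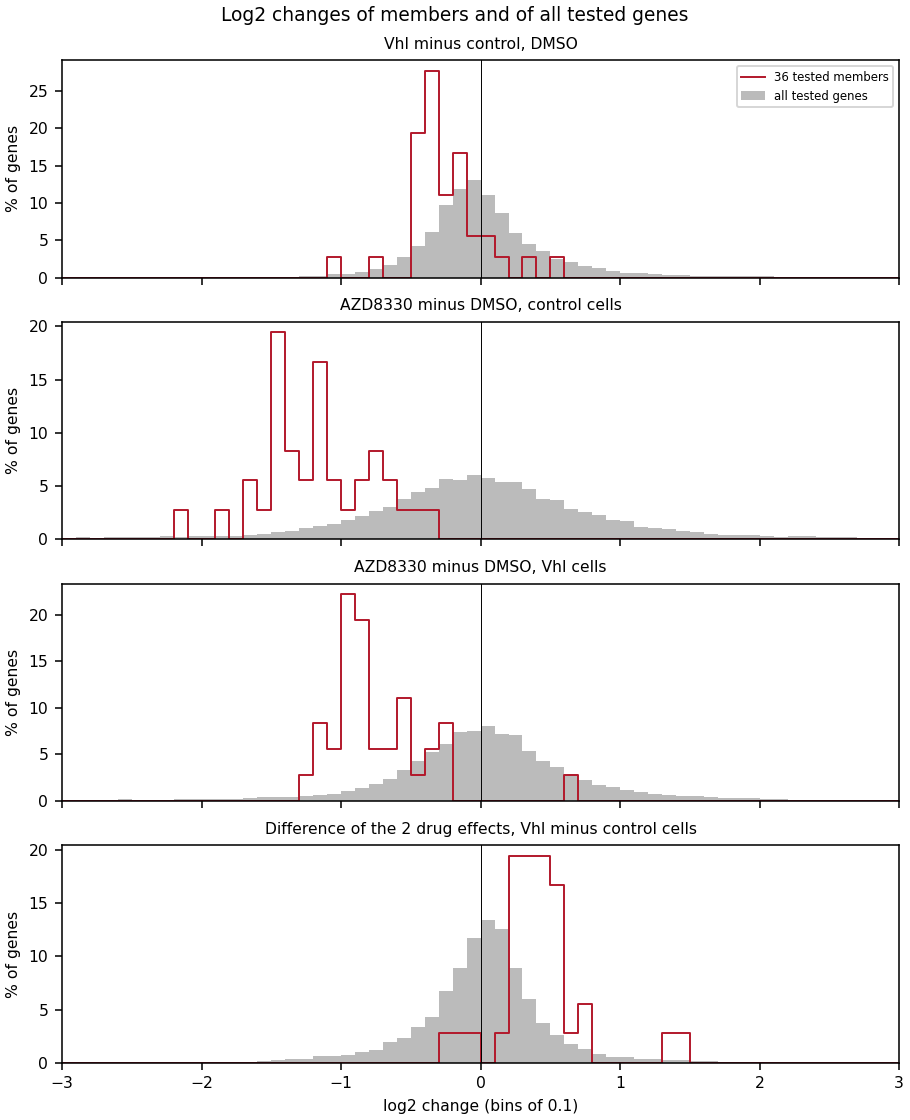
Distribution of log2 changes (x axis, bins of 0.1) as the percentage of genes (y axis) for all 13460 tested genes (grey bars) and for the 36 tested members (red line), in 4 comparisons of the drug experiment. The member distribution is centred at -1.20 for AZD8330 in control cells, at -0.85 in Vhl cells, at -0.31 for Vhl against control cells under DMSO and at 0.40 for the difference of the drug effects, while that of all genes stays near 0 in each.

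Among the genes of RNA polymerase I and its cofactors, 7 of the 9 tested fell in each line, with a median log2 change over all 9 of -0.80 in control and -0.58 in Vhl cells. Polr1a, the largest catalytic subunit (ENSMUSG00000049553.11, chr6:71909053-71984935, plus strand in GRCm38), read 100.4, 86.3 and 85.6 CPM in control cells under DMSO and 33.7, 42.6 and 27.5 CPM with AZD8330. In Vhl cells it went from 66.6, 64.4 and 66.7 to 37.4, 30.8 and 27.2 CPM. No drug library reached the lowest DMSO library, and the log2 changes were -1.39 ± 0.14 (SE, adjusted p = 1.51e-06) and -1.05 ± 0.14 (adjusted p = 3.60e-05). Polr1d, a small subunit shared with RNA polymerase III, fell least of the called members, from 178 ± 2.47 to 142 ± 4.34 CPM in control cells, a log2 change of -0.33 ± 0.05. Polr1e, a subunit that works in initiation, had changes of -0.80 ± 0.11 in control and -0.52 ± 0.11 in Vhl cells. Polr1c, the other subunit shared with RNA polymerase III, read between 0.50 and 8.70 CPM over the 12 libraries, with groups that overlapped.

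The cofactors bring the polymerase to the ribosomal RNA genes. Ubtf, which binds and opens their promoters, read 232, 233 and 260.3 CPM in control cells under DMSO and 177, 161 and 168 CPM with the drug. Its fall of 0.52 on the log2 scale (adjusted p = 4.40e-05) was smaller than that of most members. Rrn3, known as TIF-IA, carries the polymerase to the promoter and is itself a known substrate of ERK; it read 159, 158 and 161 CPM under DMSO and 86.5, 93.6 and 89.2 CPM with AZD8330 in control cells, while in Vhl cells it read 145, 140.3 and 143 CPM under DMSO and 93.9, 96.8 and 95.3 CPM with the drug. The 4 groups of Rrn3 values did not overlap, with changes of -0.83 ± 0.04 (adjusted p = 4.96e-10) and -0.58 ± 0.04 (adjusted p = 2.49e-08). Under the drug the gap between the lines was narrow, 93.6 against 93.9 CPM. The Vhl change there was not called (0.09 ± 0.04, adjusted p = 0.0965). Tcof1, the treacle protein that links the polymerase to its cofactors, had a log2 change of -1.33 ± 0.05 in control cells, and Mybbp1a, a nucleolar protein that also binds MYB, one of -1.48 ± 0.05. These fell more steeply than Ubtf and Rrn3 by value, a difference between genes that was not tested.

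Promoters are printed for the members with the smallest p for the drug effect in control cells that had an entry, Nolc1 and Nop58, and for Rrn3, whose promoter held the E-box more than once. The E-box, cacgtg on both strands, is the site bound by MYC and its partners. The hypoxia motif, acgtg or gcgtg on either strand, is the core that hypoxia-inducible factors bind, and matches inside an E-box were left out of its count. Windows run from 250 bases before to 50 after the start of the gene, from RefSeq on GRCm38.p6, and are given 5′ to 3′ on the plus strand, on which all 3 genes lie. Capitals mark the E-box in Rrn3 and the hypoxia motif in Nolc1 and Nop58.
Rrn3, chr16:13780449-13780748: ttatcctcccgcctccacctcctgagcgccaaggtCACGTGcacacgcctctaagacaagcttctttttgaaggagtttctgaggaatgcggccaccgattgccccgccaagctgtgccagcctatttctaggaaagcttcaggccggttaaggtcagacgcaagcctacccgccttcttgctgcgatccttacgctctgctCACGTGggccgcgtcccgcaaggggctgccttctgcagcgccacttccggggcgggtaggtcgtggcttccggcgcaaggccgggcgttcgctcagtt
Nolc1, chr19:46075597-46075896: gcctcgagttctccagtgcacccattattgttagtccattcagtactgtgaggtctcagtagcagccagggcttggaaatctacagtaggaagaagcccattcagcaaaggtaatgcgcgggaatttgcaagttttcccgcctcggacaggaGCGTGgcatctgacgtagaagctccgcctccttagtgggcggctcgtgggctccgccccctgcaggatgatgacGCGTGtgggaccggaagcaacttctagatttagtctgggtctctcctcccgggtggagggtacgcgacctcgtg
Nop58, chr1:59684756-59685055: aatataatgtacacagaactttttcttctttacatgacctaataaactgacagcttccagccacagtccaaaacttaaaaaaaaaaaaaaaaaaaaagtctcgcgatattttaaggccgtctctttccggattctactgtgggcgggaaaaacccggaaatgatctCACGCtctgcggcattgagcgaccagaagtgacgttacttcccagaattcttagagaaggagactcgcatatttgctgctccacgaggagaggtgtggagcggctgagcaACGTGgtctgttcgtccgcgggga
The E-boxes of Rrn3 begin at positions -215 and -48 relative to the start. Of the 38 members, 33 had a window in the table. An E-box was present in 6 of the 33 (18.18%), namely Nop2, Utp20, Pes1, Mybbp1a, Rrn3 and Wdr43, against 8.09% of all 27025 genes with windows of the same length. The hypoxia motif was present in 28 of the 33 (84.85%), against 43.35% of all genes. These shares describe letters in the windows and were not tested, and base composition was not matched.

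The 4 abundant nucleolar proteins all fell in both lines, with a median log2 change of -1.34 in control and -0.89 in Vhl cells. Ncl, which binds nascent ribosomal RNA, went from 1778, 1699.6 and 1593 CPM to 759.8, 796 and 788 CPM in control cells and so fell by 53.8% (log2 change -1.11 ± 0.04, adjusted p = 6.77e-11). Npm1 went from 1138, 1065 and 988 to 435, 452 and 445 CPM. In both genes every drug library lay far under every DMSO library. Nolc1, also called Nopp140, a phosphoprotein that gathers snoRNPs in the nucleolus (ENSMUSG00000015176.11, chr19:46075863-46085530, plus strand), read 270.2, 263 and 269 CPM and fell to 103, 101 and 95.3 CPM, a change of -1.42 ± 0.04 (adjusted p = 4.98e-12). Gnl3, the GTP-binding protein nucleostemin known from stem and progenitor cells (ENSMUSG00000042354.7, chr14:31012433-31019152, minus strand), showed the largest fall of this group. It read 121, 111 and 117 CPM in control cells under DMSO and 32.2, 34.1 and 33.4 CPM with AZD8330, 3.51-fold lower (-1.81 ± 0.06, adjusted p = 3.15e-11). In Vhl cells Gnl3 went from 97.1, 98.2 and 86.4 to 41.8, 44.5 and 43.5 CPM, 2.17-fold lower (-1.12 ± 0.06, adjusted p = 4.02e-09). The Gnl3 levels of the 4 groups did not overlap, and the Vhl libraries kept more of it under the drug.

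All 4 proteins of the box C/D and U3 snoRNPs fell in both lines, with medians of -1.48 and -0.92. Fbl, fibrillarin, the enzyme that methylates the ribose of ribosomal RNA (ENSMUSG00000046865.7, chr7:28169710-28179269, plus strand), went from 263, 262 and 251 CPM to 88.7, 92.4 and 92.03 CPM in control cells (-1.51 ± 0.04, adjusted p = 1.46e-11). In Vhl cells it went from 210.2, 212 and 195 to 108, 114 and 104 CPM (-0.92 ± 0.04, adjusted p = 2.02e-09). Fibrillarin works with the scaffold pair Nop56 and Nop58. Nop58 (ENSMUSG00000026020.9, chr1:59684971-59719044, plus strand) read 241, 236 and 226 CPM under DMSO and 73.3, 75.8 and 70.2 CPM with the drug in control cells. In Vhl cells it read 179.7, 174 and 171 CPM under DMSO and 76.2, 69.9 and 72.4 CPM with the drug. Its log2 changes were -1.68 ± 0.04 (adjusted p = 4.98e-12) and -1.26 ± 0.04 (adjusted p = 1.09e-10), the latter the largest called fall of any member in Vhl cells. The drug brought Nop58 to overlapping levels in the 2 lines, whereas under DMSO every control library was above every Vhl library. Nop56 (ENSMUSG00000027405.16, chr2:130274430-130279313, plus strand) was lower and more variable, at 54.7, 59.99 and 66.8 CPM under DMSO and 24.1, 19.2 and 23.01 CPM with the drug in control cells. Vhl libraries read 56.7, 39.6 and 43.5 CPM under DMSO and 25.6, 27.8 and 34.3 CPM with the drug, still without overlap. Rrp9, the protein specific to the U3 snoRNP, fell by 1.44 on the log2 scale in control cells and by 0.91 in Vhl cells.

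The box H/ACA snoRNPs convert uridine to pseudouridine, and all 4 of their proteins fell in control cells, 3 of them also in Vhl cells. Dkc1, the pseudouridine synthase dyskerin (ENSMUSG00000031403.14, chrX:75095854-75109777, plus strand), had the largest change of any member by value but few counts. It read 10.2, 7.04 and 7.37 CPM under DMSO and 2.92, 1.57 and 1.15 CPM with AZD8330 in control cells, a log2 change of -2.12 ± 0.42 (adjusted p = 0.000677). Vhl libraries had 3.67, 4.78 and 3.25 CPM under DMSO and 1.11, 2.23 and 3.79 CPM with the drug, which overlapped (-0.72 ± 0.42, adjusted p = 0.17). Gar1 (ENSMUSG00000028010.16, chr3:129824912-129831396, minus strand) went from 29.1, 23.9 and 23.2 to 9.53, 7.78 and 7.19 CPM in control cells (-1.63 ± 0.17, adjusted p = 2.88e-06) and from 29.1, 22.5 and 22.2 to 12.2, 8.52 and 12.3 CPM in Vhl cells (-1.16 ± 0.17, adjusted p = 8.06e-05). Nhp2 and Nop10, the small core proteins of the particle, were measured far more deeply. Nhp2 (ENSMUSG00000001056.3, chr11:51619735-51623714, plus strand) read 199.8, 198 and 199 CPM in control cells and 78.8, 76.9 and 79.7 CPM with the drug (-1.34 ± 0.05), and Nop10 went from 90.1 ± 3.61 to 43.5 ± 1.48 CPM (-1.05 ± 0.06).

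The 6 tested factors of small subunit assembly fell in both lines, with medians of -1.24 and -0.85. Utp20, a large scaffold of the particle that forms on the nascent precursor (ENSMUSG00000004356.8, chr10:88746607-88826804, minus strand), went from 124, 129 and 119 to 46.2, 41.7 and 43.5 CPM in control cells (-1.50 ± 0.06, adjusted p = 1.47e-10). Heatr1 and Wdr43, factors that also act in transcription of the ribosomal RNA genes, had changes of -1.20 ± 0.07 and -1.29 ± 0.05 in control cells. Rrp12, an export factor of the subunits (ENSMUSG00000035049.4, chr19:41862851-41896173, minus strand), read 66.6, 64.8 and 65.6 CPM under DMSO and 23.4, 24.3 and 26.7 CPM with AZD8330. In Vhl cells Rrp12 read 54.5, 53.6 and 52.03 CPM under DMSO and 31.7, 27.4 and 29.7 CPM with the drug, and the 4 groups did not overlap. Nob1, the nuclease that makes the last cut of the small subunit RNA (ENSMUSG00000003848.14, chr8:107412486-107425051, minus strand), changed less, from 74.2, 79.8 and 73.9 to 39.9, 37.9 and 35.5 CPM in control cells (-1.01 ± 0.06) and from 72.2, 76.6 and 69.1 to 52.96, 50.7 and 50.4 CPM in Vhl cells (-0.50 ± 0.06). Bysl, needed late in the same pathway, had changes of -1.20 ± 0.06 and -0.81 ± 0.06.

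Of the 9 tested factors of large subunit assembly, 8 fell in control and 7 in Vhl cells, with medians of -0.98 and -0.85. Pes1, Bop1 and Wdr12 form the PeBoW complex, which is needed to process the large subunit RNA. Wdr12 had a log2 change of -1.18 ± 0.08 in control cells, Pes1 a smaller one of -0.72 ± 0.06, and Bop1, with few counts, -0.73 ± 0.48 (adjusted p = 0.215). Noc2l, which escorts the pre-ribosome within the nucleus, went from 144, 142 and 139.6 to 55.3, 48.5 and 52.1 CPM (-1.45 ± 0.06, adjusted p = 2.19e-10). Its partner Noc3l changed by -0.72 ± 0.07, and Ftsj3, a methyltransferase of the precursor, by -1.20 ± 0.04. Nop16 (ENSMUSG00000025869.11, chr13:54584185-54590090, minus strand) read 17.2, 14.01 and 13.2 CPM under DMSO and 7.62, 6.60 and 5.61 CPM with the drug in control cells. In Vhl cells it read 10.4, 15.03 and 13.8 CPM under DMSO and 7.12, 4.98 and 5.04 CPM with the drug. Nop16 changed by -1.16 ± 0.19 in control and -1.20 ± 0.20 in Vhl cells (adjusted p = 0.000223), and Ebna1bp2, with -0.63 ± 0.15 and -0.85 ± 0.15, had the larger value in Vhl cells. Neither difference between lines passed the test.

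**Figure D3:**
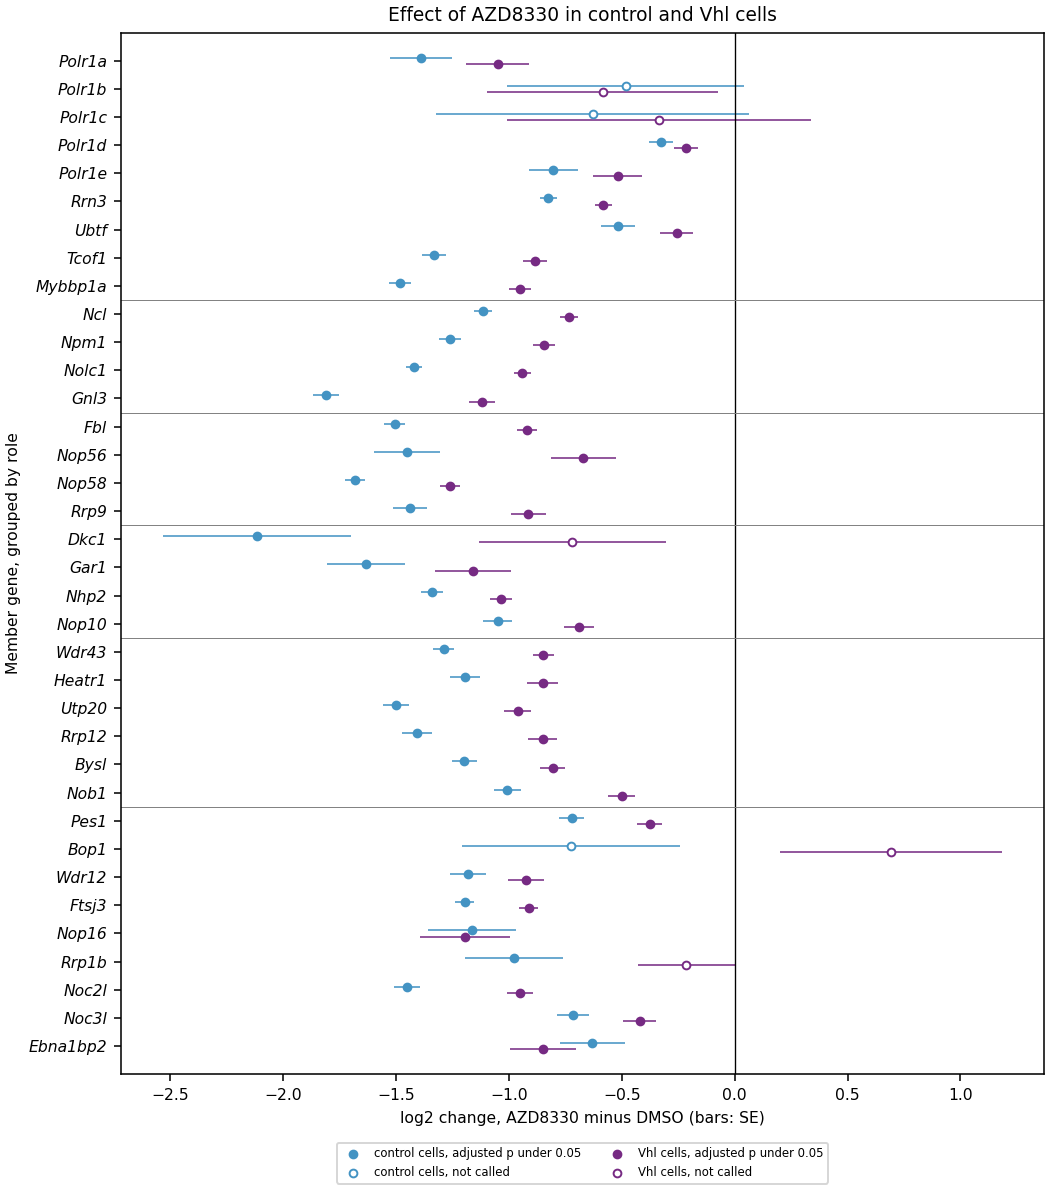
Log2 change with AZD8330 against DMSO (x axis, bars are SE) for each tested member (y axis, grouped by role), in control cells (blue) and Vhl cells (purple). Filled points have an adjusted p under 0.05. The purple points lie nearer to 0 than the blue ones for 33 of the 36 members.

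The fall with AZD8330 was smaller in Vhl than in control cells for most members. Tested as an interaction term, the difference of the drug effects was called for 22 of the 36 members, all with the smaller fall in Vhl cells, against 7.81% of all genes called in that direction and 4.96% in the other. Of these 22, 19 were also called lower in Vhl than in control cells under DMSO. A smaller fall thus need not mean a higher level under the drug. For Ncl, control and Vhl means were 1690 and 1317 CPM under DMSO and 781 and 792 CPM with the drug. Under the drug 10 members were called higher in Vhl cells, as given below. The median difference was 0.40 on the log2 scale, where that over all genes was 0.03. Of all genes called, 61.2% were higher, or 43.8% with scaling by total counts, under which 21 members were called, again all with the smaller fall in Vhl cells. By role, it was called for 4 of 4 abundant nucleolar proteins, 4 of 4 box C/D and U3 proteins and 6 of 6 small subunit factors, for 2 of 4 box H/ACA proteins, 3 of 9 large subunit factors and 3 of 9 polymerase genes. Nop56 had the largest called difference, 0.78 ± 0.21 (adjusted p = 0.0257), a call that was lost when any 1 of 7 libraries was left out (control DMSO C, Vhl DMSO B or C, control AZD8330 B or C, Vhl AZD8330 B or C), with differences of 0.58 to 0.74 then. The differences of Gnl3 (0.69 ± 0.08, adjusted p = 0.000178), Fbl (0.59 ± 0.06, adjusted p = 8.26e-05) and Rrp12 (0.56 ± 0.09, adjusted p = 0.00194) followed. The count was 14 without control AZD8330 library C and 13 without Vhl AZD8330 library B. Over all genes, 477 of 13426 and 466 of 13429 were then called in that direction. Of all genes called, 38.3% and 37.6% were higher in these fits. Without control AZD8330 library B, Vhl AZD8330 library A or Vhl AZD8330 library C, that share was 37.3%, 34.5% and 40.5%. There 17, 15 and 18 members were called, all with the smaller fall in Vhl cells. Dusp6, the readout of ERK signalling, also fell less in Vhl cells (-3.55 ± 0.05 against -4.31 ± 0.05, a difference of 0.76 ± 0.07, adjusted p = 2.74e-05). For Spry4, the other feedback gene, the difference was 0.30 ± 0.11 and did not pass (adjusted p = 0.121). The part of ERK signalling in the members' difference was not tested.

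**Figure D4:**
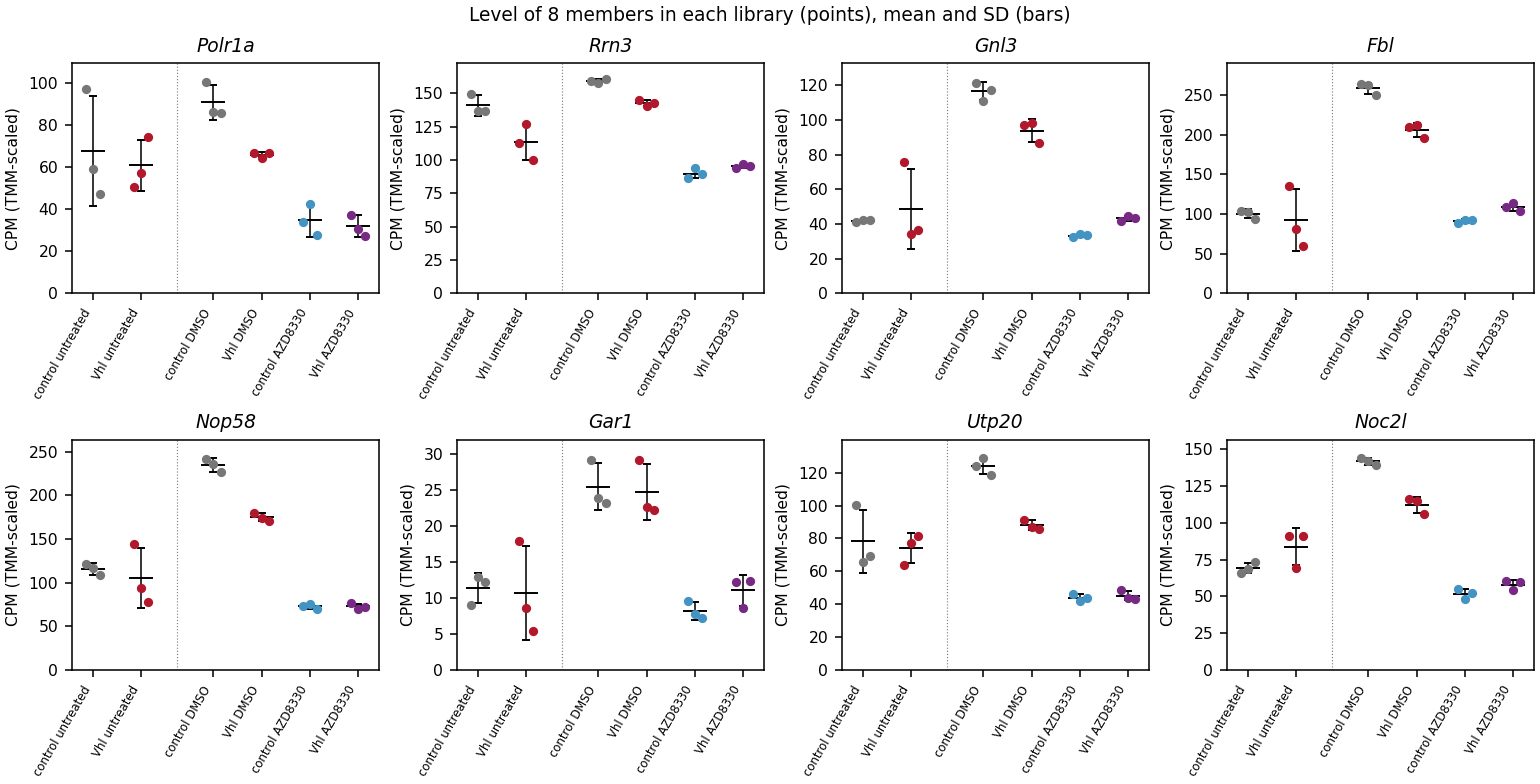
Level in CPM (y axis, from 0) of 8 members in each library (points), with the mean and SD of each group (bars), for the untreated experiment (left of the dotted line) and the drug experiment (right). In the drug experiment control DMSO is highest on average for all 8, the AZD8330 groups are lowest, and Gnl3 and Fbl stay higher in Vhl than in control cells under the drug, while the groups of Nop58 overlap there.

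Without the drug, in DMSO, ribosome biogenesis genes were lower in Vhl cells. Of the 36 tested, 22 members were lower in Vhl than in control cells and none was higher, against 18.5% of all genes called lower and 13.8% called higher. The median log2 change was -0.31, and that over all genes was -0.03. Of all genes called, 42.6% were higher in Vhl cells, or 56.8% with scaling by total counts, under which 20 members were lower and none higher. Groups did not overlap, with Vhl lower, for 25 members, against 25.3% of all genes. This comparison and the drug effects share the DMSO libraries. The summed astrocyte and neuron markers were higher in the Vhl than in the control DMSO libraries, as given above, and so was the sum of the 10 OPC markers, 9043 to 9239 against 8140.4 to 8314 CPM. Their part in the result was not tested.

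Changes under DMSO were modest in size. Utp20 read 91.4, 87.2 and 85.7 CPM in Vhl cells, all under the control libraries given above, and fell by 28.96% (-0.49 ± 0.06, adjusted p = 2.24e-05). Rrp9 read 62.5, 60.1 and 56.9 CPM in control cells and 41.99, 45.6 and 40.01 CPM with the edit (-0.49 ± 0.07, adjusted p = 0.000223). Nhp2 read 152, 147 and 134 CPM in Vhl cells (-0.46 ± 0.05, adjusted p = 9.93e-06). In all 3 genes no Vhl library reached the lowest control library. Polr1a, with the Vhl values given above, had a change of -0.46 ± 0.13 (adjusted p = 0.0176), whose call was lost without control DMSO library A (adjusted p = 0.0758) or Vhl DMSO library B (adjusted p = 0.0537). By role, all 4 abundant nucleolar proteins fell, with Npm1 at -0.39 ± 0.05 and Ncl at -0.36 ± 0.04. So did 3 of 4 box C/D and U3 proteins, 5 of 6 small subunit factors, 2 of 4 box H/ACA proteins, and 4 of 9 in each of the polymerase and the large subunit groups. The polymerase genes that fell were Polr1a, Rrn3, Tcof1 and Mybbp1a, whereas Ubtf read 242 ± 16.2 CPM in control cells and 254 ± 29.4 CPM with the edit (adjusted p = 0.504).

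Under AZD8330 some members were higher in Vhl cells. Of the 36, 10 were higher in Vhl than in control cells and 1 was lower, against 16% of all genes called higher and 14% called lower. The 10 were Ubtf, Tcof1, Nolc1, Gnl3, Fbl, Wdr43, Rrp12, Nob1, Pes1 and Rrp1b, and the median log2 change over the members was 0.15, with 0.01 over all genes. With DESeq2 size factors 7 members were higher and 2 lower, against 1796 and 2318 of all 13460 genes. Of all genes called, 43.7% were then higher in Vhl cells, in place of 53.3% with TMM scaling. Nob1 was 1.36-fold higher in Vhl cells (0.44 ± 0.06, adjusted p = 9.81e-05), with the values given above. Gnl3 was 1.30-fold higher (0.38 ± 0.06, adjusted p = 0.000381). Ubtf read 219, 204 and 215 CPM in Vhl cells with the drug, above all control libraries (0.33 ± 0.07, adjusted p = 0.00419). Rrp1b, a nucleolar regulator of a phosphatase (ENSMUSG00000058392.13, chr17:32036100-32062865, plus strand), read 12.7, 11.6 and 14.7 CPM in control cells and 26.4, 19.2 and 15.8 CPM with the edit (0.66 ± 0.22, adjusted p = 0.038). Its groups were separated by a narrow gap, and the call was lost when any 1 of 5 libraries was left out (control AZD8330 A, B or C, Vhl AZD8330 A or B), with changes of 0.38 to 0.72 then. Nhp2 was the member that was lower, at 74.1, 67.7 and 69.4 CPM in Vhl cells (-0.16 ± 0.05, adjusted p = 0.0329). Fewer members were higher with 1 library left out: 5 without control AZD8330 library B or C, 4 without Vhl AZD8330 library A and 6 without Vhl AZD8330 library C. Over all genes, 1549 of 13433 were higher without control library B and 1574 of 13426 without control library C. Without Vhl library A they were 1589 of 13446. The members' share was near that of all genes in these fits. Without Vhl library C, 1606 of 13413 genes were higher. Without control library A or Vhl library B, 7 and 8 members were higher, against 1831 of 13422 and 1569 of 13429 genes. Nhp2 lost its call without control library A or Vhl library B, while without Vhl library A 2 members were lower, Nhp2 and Wdr12. The members' median was 0.05 without control AZD8330 library C, 0.07 without control library B or Vhl library A or B, and 0.09 without Vhl library C, with -0.03 to -0.02 over all genes in these fits.

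In untreated cells no member passed the test. The edgeR test called 0 of 36 members, against 0.0147% of all 13569 genes, and 2 members (5.56%) had an unadjusted p under 0.05, against 9.34% of all genes. DESeq2, which called 246 genes higher and 109 lower in this comparison, and limma also called 0 members. The median log2 change was 0.04, with 0.05 over all genes. The 4 members with the smallest p had lower means in Vhl cells. Rrp12 read 51.3, 40.9 and 37.3 CPM in control and 31.5, 28.3 and 26.8 CPM in Vhl libraries (-0.58 ± 0.20, adjusted p = 0.422). Heatr1, a factor of early small subunit assembly (ENSMUSG00000050244.9, chr13:12395027-12440289, plus strand), read 109, 72.4 and 81.04 CPM in control and 53.1, 61.7 and 59.6 CPM in Vhl libraries (-0.59 ± 0.20, adjusted p = 0.422). Rrn3 read 149.7, 136 and 136 CPM in control and 113, 127 and 100.02 CPM in Vhl libraries (-0.31 ± 0.16, adjusted p = 0.618). These 3 were the members whose groups did not overlap with Vhl lower, against 7.86% of all genes, and none was separated with Vhl higher, against 7.92%. Wdr12 read 34.1, 24.9 and 24.5 CPM in control and 26.9, 16.8 and 13.03 CPM in Vhl libraries, which overlapped (-0.56 ± 0.31, adjusted p = 0.654).

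The untreated A libraries stood apart. Vhl library A was the highest of all 6 for 15 of the 36 members. The share over all tested genes was not counted, so this count cannot be read as particular to the members. Vhl library A was furthest above Vhl libraries B and C for the small proteins Nhp2 and Nop10. Nhp2 read 109.6, 29.05 and 31.7 CPM in Vhl libraries A, B and C, and Nop10 56.2, 16.7 and 12.8 CPM. In the control libraries Nhp2 read 52.1, 56.2 and 46.3 CPM, so Vhl library A was far above and Vhl libraries B and C were below them. The hypoxia targets given above were raised least in the same Vhl library A. Without it the members' median was -0.17, with -0.01 over all genes, and 0 members were called where 439 genes were called in all. Then 8 members (22.2%) had an unadjusted p under 0.05, against 23.6% of all genes. Without both A libraries, which leaves 2 libraries a group, the members' median was -0.12 and 0 members were called, where 606 genes were called in all. The share of members with an unadjusted p under 0.05 was then 27.8% (10 members), against 26.9% of all genes, so in both fits it lay near that of all genes. The missing call in untreated cells therefore does not show that the genotypes were alike there, and the Vhl effects of the 2 experiments were not tested against each other.

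**Figure D5:**
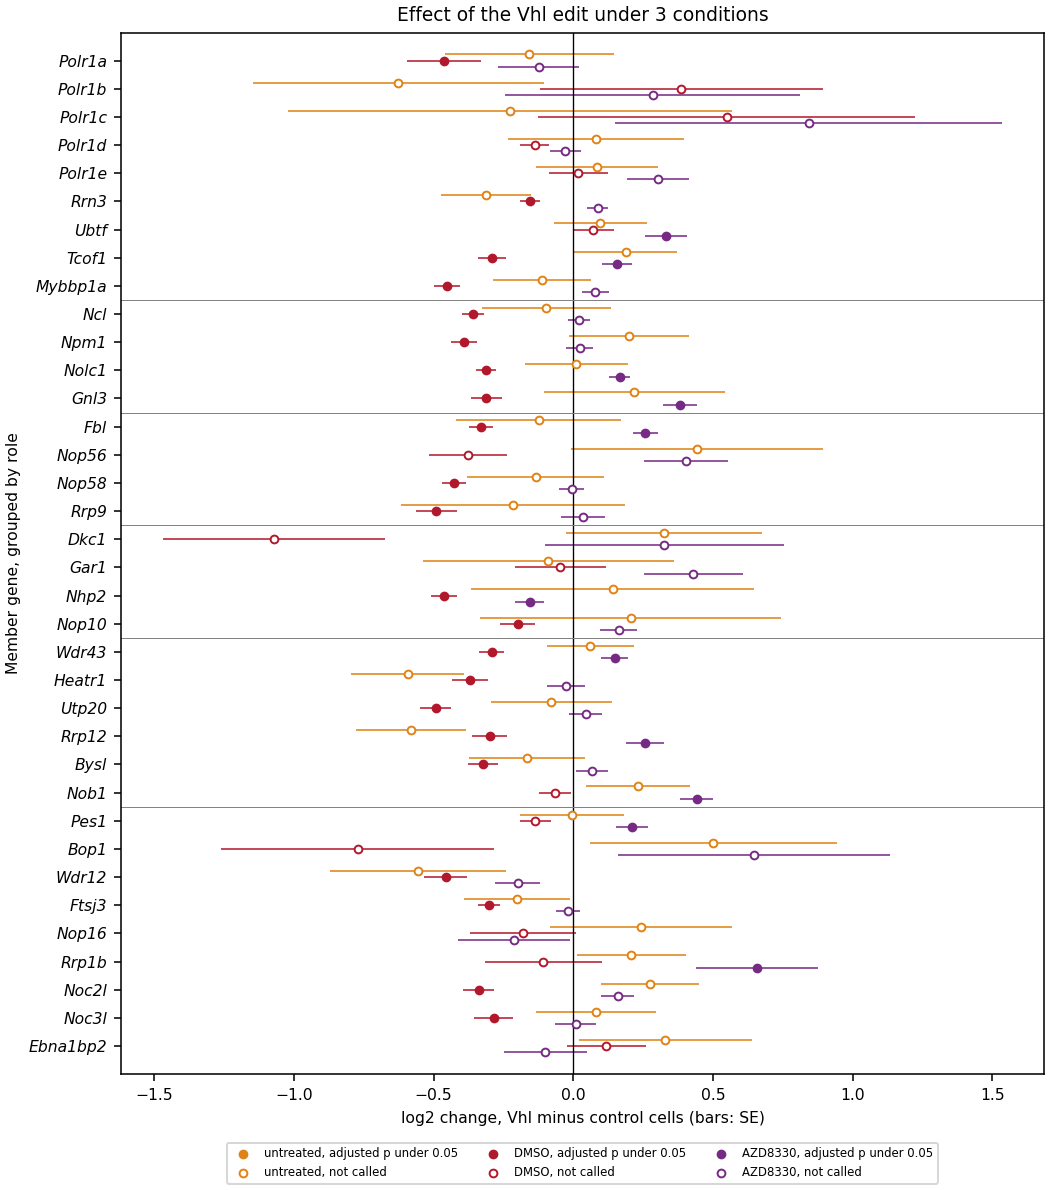
Log2 change of Vhl against control cells (x axis, bars are SE) for each tested member (y axis, grouped by role) in untreated cells (orange), under DMSO (red) and under AZD8330 (purple). Filled points have an adjusted p under 0.05. Red points lie left of 0 for 31 of the 36 members and purple points right of 0 for 27, and the untreated points are scattered on both sides with wider bars.

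The wider pathway, 114 further genes of which 112 had rows and 106 were tested, is given by counts. With AZD8330, 82 of the 106 (77.4%) fell and 1 rose in control cells, and 72 (67.9%) fell and none rose in Vhl cells. Of all genes, 31.7% were lower in control and 25.6% in Vhl cells. Ddx21, a helicase that couples polymerase I transcription to rRNA processing, had changes of -1.50 ± 0.03 in control and -1.03 ± 0.03 in Vhl cells, a difference of 0.47 ± 0.05 (adjusted p = 5.20e-05). Ppan, a large subunit factor, had changes of -1.97 ± 0.08 and -1.28 ± 0.08. The gene that rose was Ddx47 (0.43 ± 0.15, adjusted p = 0.0236), a helicase of the small subunit pathway, whose call was lost without control DMSO library B or C or control AZD8330 library C (adjusted p = 0.0583 to 0.0905). In Vhl against control cells under DMSO, 44 (41.5%) were lower and 1 higher, against 18.5% and 13.8% of all genes. Wdr18 was at -0.34 ± 0.04 and Ddx21 at -0.33 ± 0.03. Under AZD8330, 15 (14.2%) were higher and 4 (3.77%) lower in Vhl cells, neither share above that of all genes given above. The interaction term, the drug effect in Vhl minus that in control cells, was called higher for 32 (30.2%) and lower for none. Of all genes, 7.81% had a higher and 4.96% a lower interaction term. Cd3eap, a subunit of RNA polymerase I, was the exception under DMSO (0.22 ± 0.07, adjusted p = 0.0206) and was higher in Vhl cells also under AZD8330 (1.01 ± 0.07, adjusted p = 2.63e-07). The call under DMSO was lost without control DMSO library A or B or Vhl DMSO library A (adjusted p = 0.0665 to 0.0818). Exons of Cd3eap overlap those of Ercc1 on the opposite strand over 4.3% of their length. The others named under AZD8330 were Sdad1 at 0.67 ± 0.06, and Gnl3l and Utp6 at -0.18 ± 0.05 and -0.18 ± 0.05. The exosome genes trim and degrade the precursor's leftovers. With the drug 10 of 11 fell in control and 8 of 11 in Vhl cells, against 31.7% and 25.6% of all genes.

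Myc, the growth regulator that binds the E-box, was read in the same libraries. It was at 239, 241 and 240.4 CPM in control cells under DMSO and 87.2, 86.97 and 81.4 CPM with AZD8330 (-1.49 ± 0.04, adjusted p = 2.84e-12). Vhl cells held 261, 255 and 245 CPM under DMSO and 157, 157 and 160.0 CPM with the drug (-0.68 ± 0.03, adjusted p = 3.39e-09). Myc thus fell less in Vhl cells, by a difference of 0.81 ± 0.05 (adjusted p = 1.47e-06), and under the drug its Vhl libraries were all above the control ones. In untreated cells Myc read 72.2, 74.4 and 65.7 CPM in control and 150.1, 94.00 and 171 CPM in Vhl libraries, which did not overlap but did not pass the test (0.97 ± 0.24, adjusted p = 0.27). Under DMSO the Vhl change of Myc was 0.08 ± 0.03 (adjusted p = 0.0903). Mxi1, a repressor that competes with MYC for the same partner, was higher in Vhl cells under DMSO (0.82 ± 0.24, adjusted p = 0.0209) and under AZD8330 (0.92 ± 0.23, adjusted p = 0.00909). Whether either gene had a part in the members' levels was not tested.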

How the data were processed

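The authors deposited a table for the 6 untreated libraries and another for the 12 of the drug experiment. Salmon 0.14.1 and the build mm10 are named in the submitters' processing notes. The sources used here do not give how transcripts were summed to genes, the library kit or its strandedness. The tables are named as TPM, but the deposited values are estimated counts: column totals differ between libraries, and of the values above 0, 57.7% and 58.8% were whole within 0.001. They were rounded and tested with edgeR 4.0.16 (R 4.3.3) by the quasi-likelihood test with TMM scaling, for genes whose mean reached 1 CPM (13569 and 13460 genes), in 1 fit for each table, with Benjamini-Hochberg adjustment over all tested genes and a threshold of 0.05. The SE of a log2 change is its absolute value divided by the square root of the test's F statistic, and so was derived from the test. CPM values are TMM-scaled, and a CPM is a share of the counted RNA. Alternatives used limma 3.58.1 on log2(CPM + 1) or log2(CPM + 0.1), DESeq2 1.42.0, other scalings, no filter, a replicate block and fits without single libraries. The test was checked on simulated data. The 2 columns in which the authors give means over libraries were not used.

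The members and the lists of other pathway genes, MYC network genes and markers were chosen with earlier results of these data known. Named in depth were, per comparison and direction, up to 4 called members with the largest log2 change whose groups did not overlap (for the interaction without that condition), or the members with the smallest p where fewer were called. Of the other pathway genes, up to 2 were named per comparison and direction, and Vhl, Dusp6, Spry4, Myc, Mycn and Mxi1 were fixed by name; Mycn was under the filter. Further members are named by role, and the 8 plotted by library were chosen after their values were seen. Gene positions are from GENCODE M21 (GRCm38, 1-based), in which 98.37% of row names were found; 26 rows of each table hold a date in place of a symbol and are not named. Of the pathway genes, 3 were matched by older symbols, and Pwp2 and Nol10 were not matched to a row. Of the 11 MYC network genes, 10 were tested: with AZD8330 in control cells 4 were higher (40%) and 2 lower (20%), against 29.1% and 31.7% of all genes, and in Vhl cells 5 (50%) and 2 (20%), against 25.8% and 25.6%. In Vhl against control cells 6 were higher (60%) and 1 lower (10%) under DMSO, against 13.8% and 18.5% of all genes, 4 (40%) and 2 (20%) under AZD8330, against 16% and 14%, and none untreated. With 10 genes these shares describe the list only. The endothelial markers summed to at most 9.30 CPM in the drug experiment and 8.64 CPM in the untreated one, and the mesenchymal markers to at most 3.83 and 24.6 CPM.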

Additional observations from a re-analysis of the deposited data

Results flagged for a closer look

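The AZD8330 effect differed between Vhl and control cells for 22 members, by the interaction term of edgeR's quasi-likelihood test; each value below is the log2 effect in Vhl cells minus that in control cells, and a positive value is a smaller fall in Vhl cells. Among the polymerase cofactors it was 0.24 for Rrn3, 0.45 for Tcof1 and 0.53 for Mybbp1a. Among the abundant nucleolar proteins it was 0.38 for Ncl, 0.41 for Npm1, 0.48 for Nolc1 and 0.69 for Gnl3. The box C/D and U3 proteins had 0.59 for Fbl, 0.78 for Nop56, 0.42 for Nop58 and 0.53 for Rrp9, and the box H/ACA proteins 0.30 for Nhp2 and 0.36 for Nop10. In small subunit assembly the values were 0.44 for Wdr43, 0.34 for Heatr1, 0.54 for Utp20, 0.56 for Rrp12, 0.39 for Bysl and 0.51 for Nob1. In large subunit assembly they were 0.35 for Pes1, 0.28 for Ftsj3 and 0.50 for Noc2l. The groups hold 3 libraries each, too few for a search for single outlying libraries.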

How the results depend on the processing

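The counts of called members kept their direction in all fits run. For AZD8330, 33 members were lower in control cells under every alternative, and 31 to 32 in Vhl cells. Leaving out 1 library at a time gave 20 to 23 members for Vhl under DMSO, 6 to 8 for Vhl under AZD8330 (11 in all libraries), 13 to 22 for the interaction, and 0 in untreated cells. The labels do not say whether the letters pair the libraries. Correlations of same-letter deviations were low, between -0.048 and 0.045 in the untreated and -0.034 and 0.049 in the drug experiment. Of the untreated libraries 0 of 6, and of the drug libraries 8 of 12, correlated best with their own letter in another group. These values do not settle whether the letters pair the drug libraries. With the replicate block the counts were 0 for Vhl untreated, 23 for Vhl under DMSO, 10 for Vhl under AZD8330, 33 and 31 for AZD8330 in control and Vhl cells, and 22 for the interaction. Over all genes, the untreated comparison called 2 in edgeR, 355 in DESeq2, 4 in limma, 143 in edgeR without the filter, and 439 in edgeR without Vhl library A. The fit without both A libraries was chosen after seeing the data and called 606 genes and 0 members. Among single values, Cd3eap under DMSO and Ddx47 with AZD8330 in control cells lost their calls without the filter (adjusted p = 0.125 and 0.167), and Rrp1b with DESeq2 size factors (adjusted p = 0.0514). With the longest transcript as length, Ncl (206 CPM per kilobase) came before Nhp2 (191), Npm1 stayed highest at 651, and Polr1d moved from 58.4 to 132. The cause of these differences was not tested. Low counts limit what can be read for Nop2, Nop14, Polr1b, Bop1 and Dkc1. Polr1c varied widely within groups, at 9.51, 13.6 and 0.83 CPM in untreated Vhl libraries and 2.67, 4.90 and 0.50 CPM in control AZD8330 libraries. Why these members read low or varied was not tested.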

Other observations

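In the untreated table, the log2 difference of Vhl library A from the mean of Vhl libraries B and C had a Spearman correlation of -0.38 with exon length over 13479 genes and of -0.40 over the 36 tested members. The corresponding difference of control library A correlated with length in the other direction, at 0.21 over all genes and 0.40 over the members. These are descriptions across genes, which are not independent replicates, within libraries of differing depth. Vhl library A was above Vhl libraries B and C for 21 of the 36 members, and control library A above control libraries B and C for 20. These counts were not made over all genes.

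The authors' mean column for Vhl cells in the untreated table is not the mean of the 3 Vhl columns. Of 26451 rows above 0, it differed from that mean by more than 0.01 in 24513. It equals, within 3e-05, the mean of control B, control C and Vhl A. For Nop58 the column holds 2297.7 estimated counts where the mean of the 3 Vhl columns is 1937.7, and for Vegfa, a target of the hypoxia-inducible factors, it holds 360.4 where that mean is 5797.1. No result here uses this column.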
